A study of Homo sapiens with 6 samples.

Results

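The genes described here are 10 genes of the MHC class II system: HLA-DRA, HLA-DRB1, HLA-DRB5, HLA-DMA and CD74, which take part in antigen presentation, and CIITA, RFX5, RFXANK, RFXAP and NFYA, which encode their transcriptional regulators. They were selected on the lists themselves, that is, looked up by name in the lists of JMJD6, of N-Myc and of shared regions (promoters, typical enhancers, super-enhancers), so that being named in a list is a description of them and not a finding. Of the 10 genes, 6 were named in at least 1 list and 4 were not listed (HLA-DRB1, HLA-DRB5, CIITA and RFXANK). The lists together named 8279 gene symbols.

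ChIP-seq (chromatin immunoprecipitation followed by sequencing) had been done in CHP-134, a human neuroblastoma cell line of the peripheral nervous system. The labels give no drug and no introduced genetic change. The study describes the line itself as having the MYCN gene amplified and the JMJD6 gene gained. The 6 samples made up 2 groups, with 3 samples pulled down with an antibody against N-Myc, the transcription factor encoded by MYCN, and 3 with an antibody against JMJD6, a jumonji domain protein (PTDSR, an older symbol of JMJD6, in the sample titles). N-Myc chromatin was fixed with formaldehyde, and JMJD6 chromatin with disuccinimidyl glutarate and then formaldehyde, so differences between the lists cannot be told apart from differences between these protocols. All samples came from 1 cell line, and whether the triplicates were separate cultures is not given in the sources used here. The comparison asks at which of these genes the proteins were bound, and whether at the same place.

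MHC class II molecules are cell-surface heterodimers that present peptides to CD4+ T cells, mainly on dendritic cells, macrophages and B cells. Their promoters share a module of an X box, read by the RFX complex of RFX5, RFXANK and RFXAP, and a Y box, read by NF-Y, of which NFYA is a subunit. CIITA, the class II transactivator, is recruited to these proteins rather than to DNA itself, and its expression is what restricts class II genes to certain cells. Neuroblastoma cells are not antigen-presenting cells. E-boxes are the sites that Myc proteins read.

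The sequences below, from the GRCh37 reference, show that module at start sites of members and at 2 JMJD6 peaks outside listed promoters. The X box was searched as AACNGNTG with at most 1 mismatch among its 6 fixed letters and the Y box as ATTGG, 15 to 30 bp further along the same strand. Both boxes are in capitals, and each sequence runs 5′ to 3′ on the strand that reads the pair in this order. The reference was used, since the lists hold no reads of CHP-134.

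HLA-DMA, JMJD6-bound promoter, chr6:32920943-32921006, minus strand: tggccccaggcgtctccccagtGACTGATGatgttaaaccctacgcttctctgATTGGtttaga

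HLA-DRB1, promoter not listed, chr6:32557661-32557723, minus strand: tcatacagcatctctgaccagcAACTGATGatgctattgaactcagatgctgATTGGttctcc

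HLA-DRB5, promoter not listed, chr6:32498144-32498206, minus strand: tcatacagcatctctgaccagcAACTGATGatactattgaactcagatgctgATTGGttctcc

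Intergenic JMJD6 peak 33.9 kb from the HLA-DRA start site, chr6:32441438-32441500, minus strand: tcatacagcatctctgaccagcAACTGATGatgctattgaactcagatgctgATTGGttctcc

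JMJD6 peak in an intron of CD74, chr5:149789484-149789547, plus strand: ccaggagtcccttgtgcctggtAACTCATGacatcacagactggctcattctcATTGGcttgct

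A promoter pair without a mismatch was found both with and without a listed peak, in 1 of the 5 members with a bound promoter and in 2 of the 5 without one. Of the promoters printed here, HLA-DRB1 and HLA-DRB5 matched without a mismatch and HLA-DMA with 1. The boxes lay 23 bp apart at HLA-DMA and 22 bp apart at HLA-DRB1 and HLA-DRB5. From the X box to the Y box, HLA-DRB1 and HLA-DRB5 were identical at 34 of 35 positions. None of these windows overlapped an annotated exon. The HLA-DMA window lay in an intron of longer HLA-DMA transcripts.

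JMJD6 was bound at the promoters of 4 members and N-Myc at those of 2. A promoter here is 1 kb on each side of a RefSeq start site, as the authors defined it, and a common peak is one found in all 3 samples of an antibody. The JMJD6 promoter list named HLA-DRA, the alpha chain of HLA-DR; HLA-DMA, a chain of the peptide exchange factor HLA-DM; CD74, the invariant chain that escorts class II molecules; and RFX5, the DNA-binding subunit of the RFX complex. N-Myc promoters were listed for RFX5 and NFYA, and RFX5 was the only 1 of the 10 named for both proteins. Across 20149 protein-coding genes, 0.625% were named in the JMJD6 promoter list, 17.5% in the N-Myc promoter list and 0.298% in the list of promoters bound by both. As the members were chosen by these lists, nothing is read from their counts against these shares. No promoter row was found for HLA-DRB1, HLA-DRB5, CIITA, RFXANK or RFXAP.

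Among typical enhancers, RFX5 was named for JMJD6, and HLA-DMA, CD74, RFX5 and NFYA for N-Myc. Of all protein-coding genes, 0.908% were named in the JMJD6 enhancer list and 31.8% in the N-Myc enhancer list. The single super-enhancer naming a member was bound by N-Myc and assigned to RFXAP, and that list named 1.31% of protein-coding genes. Enhancer rows name the nearest genes at any distance up to the authors' limit, so a row alone does not place a peak at the gene. The typical enhancers naming RFX5 and NFYA hold the same peaks that cover their start sites, so those peaks are counted in both classes.

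**Figure D1:**
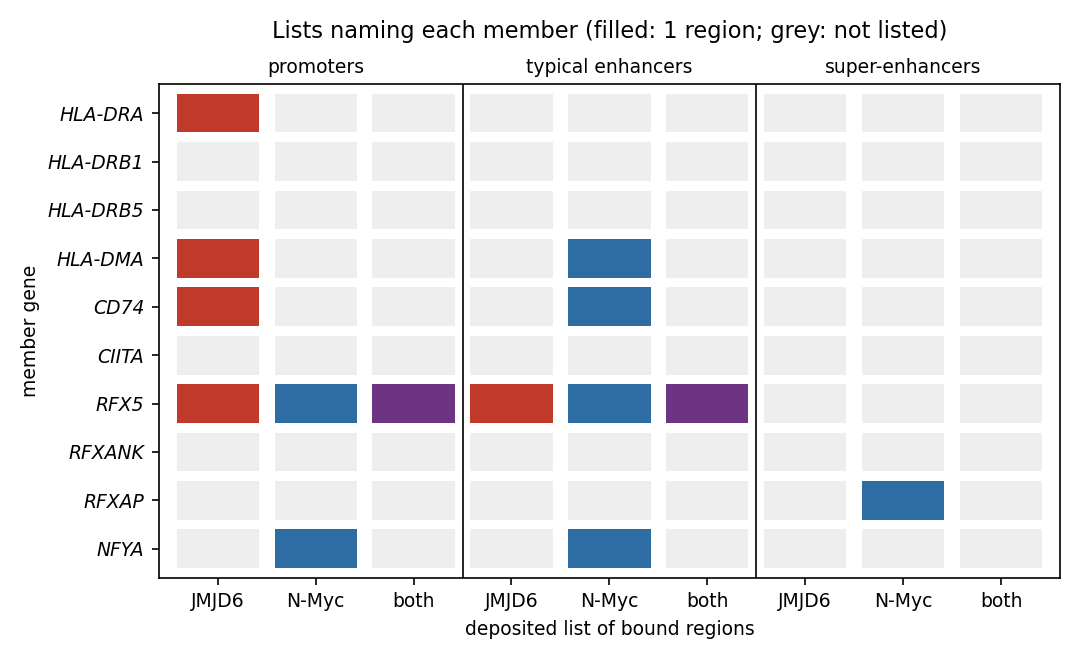
Presence of the 10 members in the 9 lists of bound regions; columns are the lists of promoters, typical enhancers and super-enhancers for JMJD6, N-Myc and both, and a filled cell stands for 1 listed region. HLA-DRA, HLA-DMA and CD74 had a promoter in the JMJD6 list without N-Myc, RFX5 was named for both proteins, and HLA-DRB1, HLA-DRB5, CIITA and RFXANK have no filled cell.

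At HLA-DRA (chr6:32407655-32412823, plus strand) the JMJD6 peak ran from 32407083 to 32407965. It was 883 bp wide, covered the start site and had its centre 140 bp upstream of it in intergenic sequence. No E-box (CACGTG) was in the peak. The nearest N-Myc peak was 195 kb away.

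HLA-DMA (chr6:32916390-32936871, minus strand) had a JMJD6 peak of 596 bp from 32920816 to 32921411, centred 240 bp upstream of the start site. This peak covered the pair printed above, 147 bp from the peak centre. It held no E-box either. The N-Myc enhancer that names HLA-DMA lay elsewhere, at chr6:32935151-32941767, with a listed distance of -17560 bp. That region holds 3 N-Myc peaks over BRD2, which encodes a BET bromodomain protein, and it names BRD2 as well. The longest annotated HLA-DMA transcript starts inside the widest of these peaks, 1769 bp wide, so that by annotated start sites alone HLA-DMA would count as N-Myc-bound.

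CD74 (chr5:149781200-149792532, minus strand) had 2 JMJD6 peaks, of which 1 is in its listed promoter. The promoter peak ran from 149792386 to 149792867, was 482 bp wide and was centred 154 bp upstream of the start site. It held 1 Y box, and no site in it came closer to a pair than 3 mismatches in the X box. The other peak, from 149788970 to 149791465, was intronic and began 33 bp outside the listed promoter region, so it falls just outside the rule that chose the members. At 2496 bp it was the wider, with only 8 of the 561 JMJD6 peaks wider still. It held a pair with 1 mismatch on the strand opposite to the gene, 694 bp from its centre. The N-Myc enhancer naming CD74 lay at chr5:149737603-149738132, within TCOF1, at a listed distance of 54447 bp. The N-Myc peak in that enhancer also overlapped the listed promoter of TCOF1. The nearest N-Myc peak to the CD74 start site was 36.1 kb away on the other side.

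RFX5 (chr1:151313116-151319802, minus strand) carried 1 interval that is in both lists, from 151319132 to 151320614. Its centre lay 145 bp upstream of the start site, in an intron of the antisense gene RFX5-AS1, and the interval also overlapped the listed promoter of GBAT2. It was 1483 bp wide, and 24 of the 241 peaks shared by the proteins were wider. Shared peaks have the same ends in both lists, with a median width of 574 bp, so the width at RFX5 belongs to neither protein alone and does not show where within it either one lay. The same interval fell in a typical enhancer at chr1:151318745-151320268 that names RFX5 and PI4KB and is listed for both proteins. RFX5 was the only member with an E-box in its promoter peak. An E-box was in 7.05% of the 241 shared peaks, against 34.1% of N-Myc peaks without JMJD6 and 4.38% of JMJD6 peaks without N-Myc. The widths of these sets of peaks were not matched. Whether N-Myc lay at the E-box of the RFX5 interval was not tested. The interval had no X and Y box pair with fewer than 2 mismatches, although it held 2 Y boxes.

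The E-box of the RFX5 interval (in capitals below, plus strand) lay 183 bp downstream of the RFX5 start site, 328 bp from the centre of the interval, in an RFX5 intron and an exon of RFX5-AS1. A Y box (in capitals, plus strand) lay 175 bp upstream of the start site and 30 bp from the centre. They are shown because the interval is the one place where both proteins were bound at a member.

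RFX5 E-box, chr1:151319517-151319572: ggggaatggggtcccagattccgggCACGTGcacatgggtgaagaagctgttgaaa

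RFX5 Y box, chr1:151319876-151319930: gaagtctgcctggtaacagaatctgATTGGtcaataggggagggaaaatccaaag

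NFYA (chr6:41040713-41070142, plus strand), a DNA-binding subunit of NF-Y, had an N-Myc peak of 650 bp from 41040081 to 41040730 that covered its start site and was centred 307 bp upstream. The peak also covered a start site of OARD1, an ADP-ribose hydrolase gene on the opposite strand, and had no E-box. It is also the peak of the typical enhancer that names NFYA, at a listed distance of -40 bp. The nearest JMJD6 peak was 1911 kb away. RFXAP (chr13:37393359-37403241, plus strand), an RFX subunit, was named only by the N-Myc super-enhancer at chr13:37459488-37495637. That region lies at a listed distance of 84201 bp, within SMAD9, which encodes a mediator of BMP signalling, and holds 2 N-Myc peaks. The nearest N-Myc peak was 60.5 kb from the RFXAP start site and the nearest JMJD6 peak 4313 kb.

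**Figure D2:**
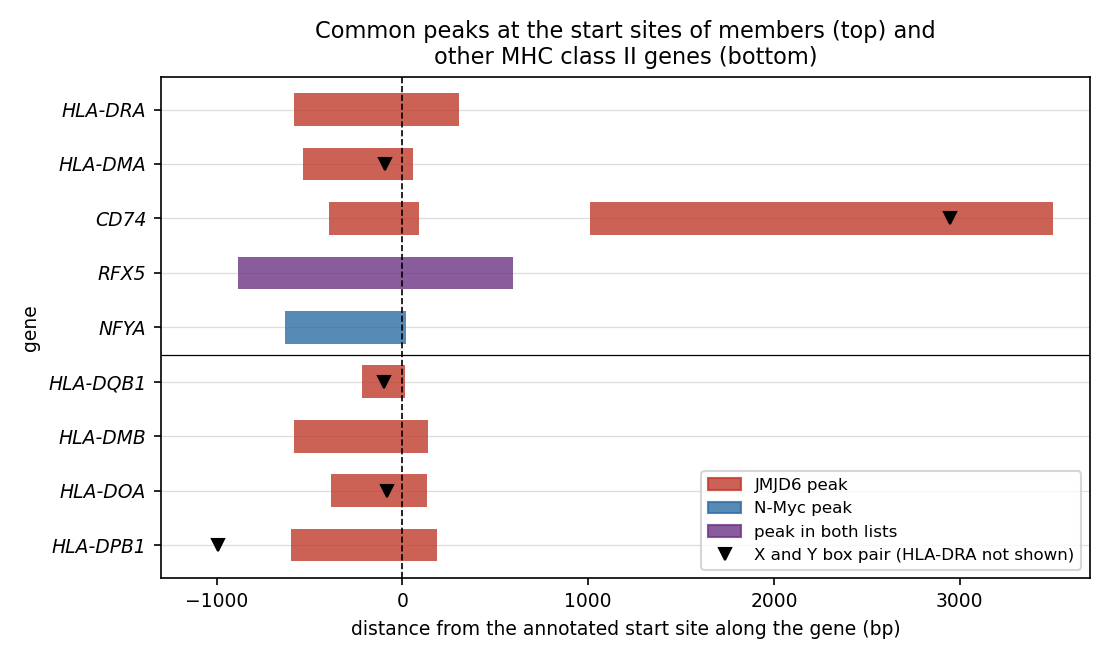
Common peaks near the start sites of the 5 members with a bound promoter (above the line) and of 4 other class II genes in the JMJD6 promoter list (below); the x axis gives bp from the annotated start site along the gene, bars are peaks coloured by list and triangles are the centres of X and Y box pairs upstream of the start sites of HLA-DMA, HLA-DQB1, HLA-DOA and HLA-DPB1 and in the CD74 intron (boxes at HLA-DRA are not shown). Every promoter bar crosses 0 and reaches further upstream than downstream, and the HLA-DPB1 pair lies outside its peak.

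The JMJD6 peaks at HLA-DRA, HLA-DMA and CD74 therefore covered the start site with a centre 140 to 240 bp upstream. The interval at RFX5, shared with N-Myc, did so too, but its centre does not place JMJD6 within it. Over the 124 JMJD6 peaks in listed promoters the median centre was -81.5 bp from the nearest listed start site (quartiles -201 and 36 bp), and over 3550 N-Myc promoter peaks it was 20 bp upstream. The members' values were measured from annotated start sites, which lay 25 to 46 bp downstream of the centres of their listed promoters. Measured from those listed centres, as the median was, the members' peak centres would lie less far upstream by these amounts. The median also takes the nearest listed start site, which can only shorten a distance. The members are therefore not shown to lie further upstream than other JMJD6 promoter peaks. Median width over the 124 JMJD6 promoter peaks, which include intervals shared with N-Myc such as that at RFX5, was 546 bp (quartiles 381 and 757 bp). HLA-DRA was above that upper quartile with 13 wider promoter peaks, HLA-DMA had 53 wider and CD74 74 wider. The lists give no height, score or read count, so width is the only size of a peak, and a wide peak need not be a strong one.

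**Figure D3:**
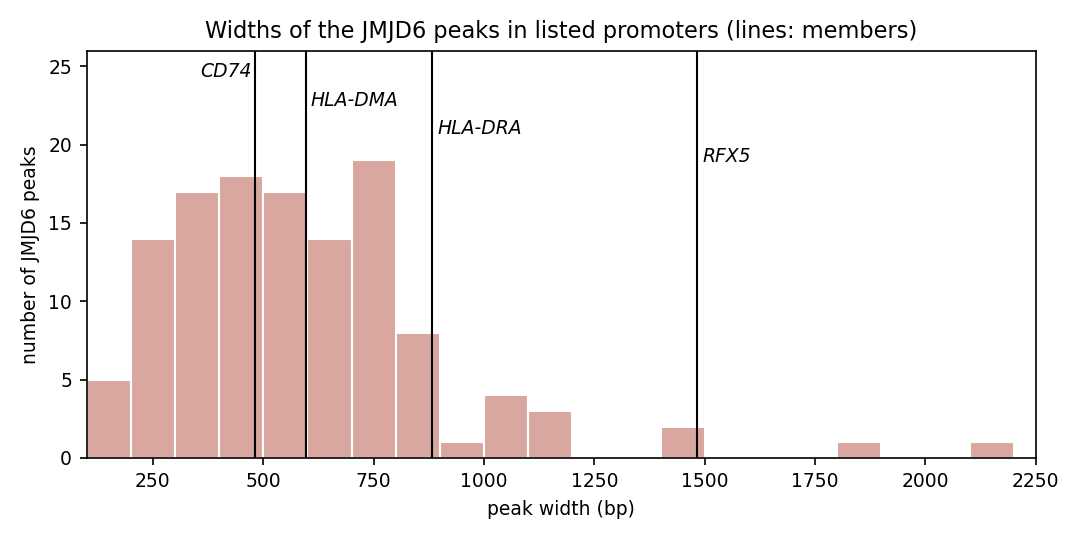
Histogram of the widths (bp) of the 124 JMJD6 peaks in listed promoters, with lines at the members. CD74 at 482 bp and HLA-DMA at 596 bp lie near the median of 546 bp, HLA-DRA at 883 bp lies above the upper quartile, and RFX5 at 1483 bp, an interval shared with N-Myc, has 2 wider peaks.

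HLA-DRB1 and HLA-DRB5, the beta chains that pair with the HLA-DRA product, were in no list, and their promoters hold the pair without a mismatch. The pair was centred 59 bp upstream of the HLA-DRB1 start site (chr6:32545679-32557625, minus strand) and 103 bp upstream of that of HLA-DRB5 (chr6:32485130-32498064, minus strand). The nearest JMJD6 peaks were 19.9 and 56.2 kb from these start sites, and the nearest N-Myc peaks 345 and 285 kb. HLA-DRB5 is carried by only some human haplotypes and HLA-DRB1 is highly polymorphic, and the HLA type of CHP-134 is not given in the sources used here. Of the 75-bp stretches in the promoter region, 96.3% at HLA-DRB1 and 97.9% at HLA-DRB5 occur once in the reference, against 99.9% at HLA-DRA and 100% at HLA-DMA, CD74 and RFX5. Whether alignment played a part in the absence of a peak was not tested.

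The intergenic JMJD6 peak 33.9 kb from HLA-DRA carries a stretch of the HLA-DRB1 promoter region. This peak ran from 32441333 to 32441854, 522 bp, and 140 bp of it (32441406 to 32441545) were identical to the HLA-DRB1 promoter region, including the pair printed above. Of its 448 stretches of 75 bp, 66 also occur in the HLA-DRB1 promoter region and none in that of HLA-DRB5, and 85.3% occur once in the reference. The longest stretch identical to the HLA-DRB5 promoter region was 62 bp, shorter than the 75 bp counted. Such counts miss sequence that is nearly identical, as around the HLA-DRB5 pair printed above. It had no N-Myc peak and no listed promoter. From which of the places with this sequence its reads came was not tested, as the lists hold no reads.

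CIITA (chr16:10960079-11036878, plus strand) had no listed region for either protein. The nearest N-Myc peak was 133 kb from its start site and the nearest JMJD6 peak 5031 kb. Its promoter region held 1 pair with 1 mismatch, not upstream on the gene strand. RFXANK (chr19:19303038-19312678, plus strand), an ankyrin repeat subunit of the RFX complex, had an N-Myc peak 10.9 kb from its start site, beyond the end of the gene. The nearest JMJD6 peak was 193 kb away. Measured from any annotated start of RFXANK, the N-Myc peak was 4.02 kb away. The promoter regions of CIITA, RFXANK and RFXAP were 100% unique by 75-bp stretches.

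**Figure D4:**
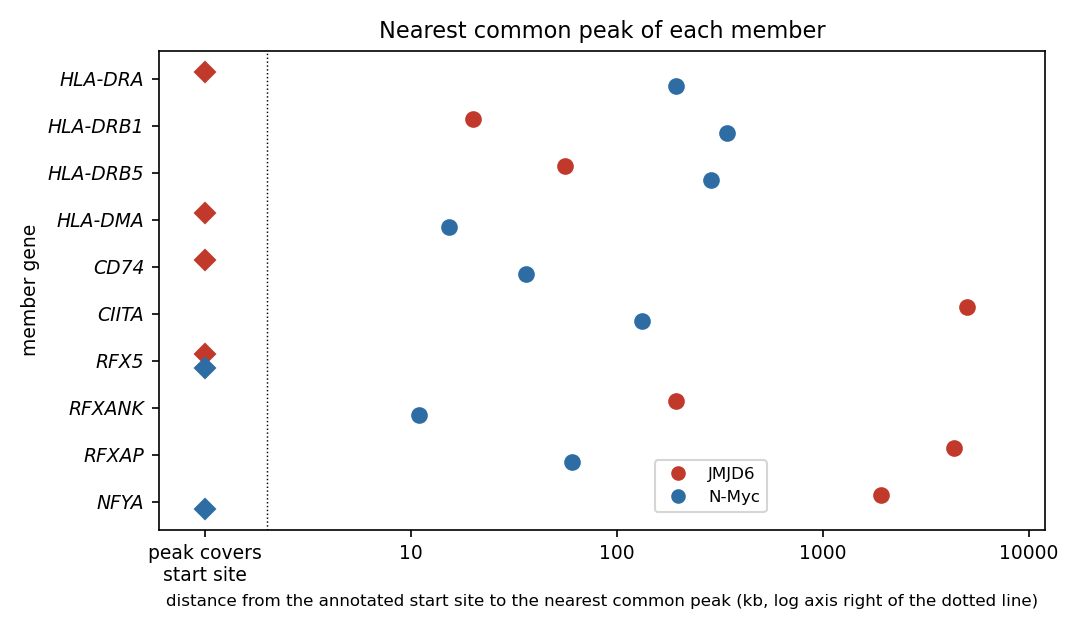
Distance in kb (log axis) from each member's annotated start site to the nearest common JMJD6 or N-Myc peak; diamonds left of the dotted line are peaks that cover the start site. JMJD6 peaks cover 4 start sites and N-Myc peaks 2, and among the members in no list the nearest peak is between 10.9 kb (RFXANK, N-Myc) and 133 kb (CIITA, N-Myc).

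The wider class II pathway was looked up as a list of 26 genes, of which 10 are the members and 24 have a symbol in the annotation. JMJD6 promoters were listed for 8 of the 26 (30.8%), 7 of them without N-Myc, against 0.625% of all protein-coding genes. N-Myc promoters were listed for 4 (15.4%), near the 17.5% of all protein-coding genes. The list was chosen with earlier results of these data known, so these shares are descriptions. Of the 16 genes that are no members, JMJD6 was bound at 4: HLA-DQB1 and HLA-DPB1, beta chains of the DQ and DP molecules, HLA-DMB, the partner chain of HLA-DMA, and HLA-DOA, a chain of HLA-DO, which modulates HLA-DM. N-Myc was bound at 2 others, NFYB and NFYC, which encode the further NF-Y subunits and are named here after their values were seen. Neither protein was listed at 10, which include the genes without a symbol in the annotation. The 4 JMJD6 peaks covered the start sites, with centres 103 bp (HLA-DQB1) to 224 bp (HLA-DMB) upstream, and were 236 bp (HLA-DQB1) to 784 bp (HLA-DPB1) wide. None held an E-box.

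The pair lay inside some of these peaks. The peaks at HLA-DQB1 and HLA-DOA held a pair with 1 mismatch, centred 2 and 46 bp from the peak centre. Those at HLA-DMB and HLA-DPB1 came no closer than 2 mismatches.

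HLA-DQB1, chr6:32634512-32634574, minus strand: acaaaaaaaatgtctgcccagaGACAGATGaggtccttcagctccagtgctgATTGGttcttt

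HLA-DOA, chr6:32977425-32977488, minus strand: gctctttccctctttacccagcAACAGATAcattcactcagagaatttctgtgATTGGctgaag

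These are shown because the pair lay inside the JMJD6 peak, which was so at 4 of the 8 JMJD6-bound promoters of the list. In the whole promoter region, an upstream pair on the gene strand was held by 5 of the 8 pathway genes with a JMJD6 promoter and by 3 of the 16 annotated ones without, HLA-DRB1 and HLA-DRB5 among the latter. The former include HLA-DPB1, whose pair starts at -1011 bp from the start site and lies outside its peak. The genes without a JMJD6 promoter include the regulators CIITA, RFXANK, RFXAP and NFYA, and those with one include the regulator RFX5. None of these regulators held such a pair. The share of all promoters with an upstream pair on the gene strand is not given here. The members among these genes were chosen by the lists, and the difference was not tested. These counts therefore do not show that the pair goes with JMJD6 binding.

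Across the class II segment, chr6:32406655-33096861 (690 kb), there were 11 JMJD6 peaks and 4 N-Myc peaks, and none was shared. These were 1.96% of the 561 JMJD6 peaks and 0.0393% of the 10172 N-Myc peaks. The ends of the segment were set by HLA-DRA and HLA-DPB2, both with a listed JMJD6 promoter, so these shares are descriptions. The share of the genome that the segment takes up is not given here, so neither share is read as high or low. Of the JMJD6 peaks, 7 lay in promoters of class II genes, including the pseudogene HLA-DPB2, which was named after its values were seen. The other JMJD6 peaks were at the class I antigen processing genes TAP1, PSMB8 and PSMB9 (2 peaks) and in 2 intergenic places. The second intergenic peak, 373 bp wide and 170 kb from the HLA-DRA start site, held a pair with 1 mismatch at its centre. Of the N-Myc peaks, 3 were at BRD2 and 1 was in an intron of HLA-DPB2.

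**Figure D5:**
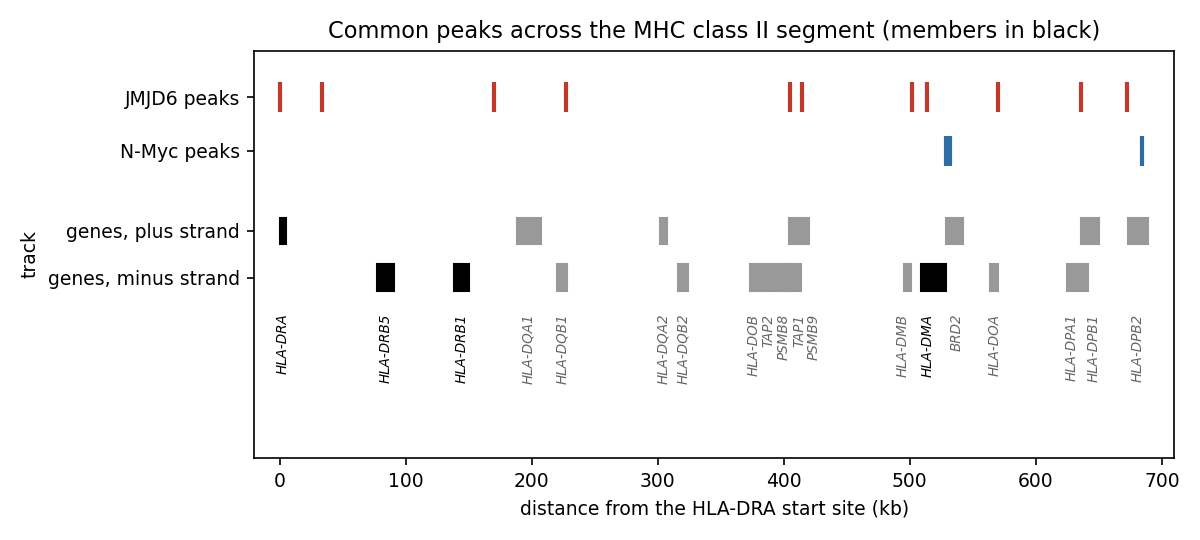
Map of the class II segment of chromosome 6 in kb from the HLA-DRA start site; ticks are the centres of common peaks and boxes are genes by strand, with members in black. The 11 JMJD6 ticks spread over the segment, none at HLA-DRB5 or HLA-DRB1, whereas the 4 N-Myc ticks lie at BRD2 and HLA-DPB2.

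Related gene lists were looked up for comparison. Of 13 MHC class I genes, which encode or serve the molecules that present peptides to CD8+ T cells, 9 were in the JMJD6 promoter list. None was in the N-Myc promoter list. The shares of all protein-coding genes in these lists were 0.625% and 17.5%. None of 7 other RFX family genes had a listed promoter, and RFX4 was named by an N-Myc enhancer. Of 8 adrenergic neuroblastoma markers, 6 were named by N-Myc enhancers, against 31.8% of all protein-coding genes, HAND2 and GATA3 among them. None of the 8 had a listed promoter or any JMJD6 region. Of 8 markers of blood and antigen-presenting cells, only PTPRC was named by an N-Myc enhancer, and none had a listed promoter or any JMJD6 region. The marker and RFX family genes named here were picked out after their values were seen. Lists of binding hold no expression level, so none of these genes can be said to be on or off.

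The X and Y box pair was then counted in all peaks. It was in 60 of 561 JMJD6 peaks, or 10.7% (95% exact binomial CI 8.26 to 13.6%), and in 4.83% of N-Myc peaks (CI 4.42 to 5.26%). Within 100 bp of the peak centre, which sets all peaks to 1 length, the shares were 5.53% (CI 3.79 to 7.75%) and 2.07% (CI 1.81 to 2.37%). Among protein-coding promoters of 2001 bp, a longer stretch, 13.9% held a pair and 0.680% a pair without mismatch. By this background, a pair with 1 mismatch somewhere in a promoter is common and a pair without mismatch, as in 3 of the 10 members, is rare. The search letters follow the known class II module, so a match at a class II gene is a description of its promoter. The E-box was in 5.53% of JMJD6 peaks (CI 3.79 to 7.75%), 33.4% of N-Myc peaks and 29.2% of the promoters. Intervals cover counting error over listed peaks only, and neighbouring peaks are not independent. A match of letters is not a shown binding site.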

How the data were processed

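N-Myc and JMJD6 ChIP-seq of CHP-134 cells was used as 12 deposited lists, which hold positions in bp pooled over the 3 replicates of an antibody, with gene symbols for regions. According to the labels and the study's methods, alignment by the authors to hg19 was with BWA, followed by SAMtools and BEDTools. They called peaks against input with MACS2 2.1.1.20160309, and kept peaks of all 3 replicates. For enhancers and super-enhancers they ran ROSE on H3K27ac data, and GREAT gave the genes. Whether the alignment reference held alternate MHC haplotypes is not given in the sources used here. The lists hold no count or score, so the depth is unknown and no test between replicates was made.

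The members and all gene lists were chosen with earlier results of these data known. All members are named. Some items of the lists and some sequences are not reported here. Of the other pathway genes, those in a JMJD6 promoter list are named, as are genes sharing a listed peak with a member. Symbols were matched exactly, and peaks to regions by at least 1 bp. The build was checked against GENCODE version 44 lifted to GRCh37: 89.4% of 161 JMJD6 and 88.1% of 4707 N-Myc promoters with an annotated symbol were centred within 100 bp of a start site of it. The box search ran on both strands and was tested on simulated sequences. The E-box reads the same on both strands. With 1 mismatch allowed, an X box can contain an E-box, so the counts of pairs and of E-boxes are not separate by construction. A stretch of 75 bp, a read length, was unique where it occurred once in the GRCh37 primary assembly on either strand. Python 3.11.15, SciPy 1.17.1, numpy 2.4.6, numba 0.67.0, pysam 0.24.0 and matplotlib 3.10.9 were used.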

Additional observations from a re-analysis of the deposited data

How the results depend on the processing

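Of 23 alternatives for 9 results, 15 left the value within 1.5 times or within its interval. The 4 JMJD6-bound member promoters were the same genes with annotated start sites at 500 bp, 1 kb and 5 kb, with 50% or more of the peak inside the promoter, and with peaks of at least median width. N-Myc-bound members rose from 2 to 3 with annotated start sites at 500 bp and at 1 kb, gaining HLA-DMA at BRD2. At 5 kb they were 4, with RFXANK as well. HLA-DQB1 left the pathway genes with peaks of at least median width. With all annotated genes in place of protein-coding ones, the shares with a listed promoter were 0.236% for JMJD6, 6.35% for N-Myc and 0.112% for both. The share of JMJD6 peaks with a pair fell to 1.96% without mismatches, 6.42% with 20 to 26 bp between boxes and 5.53% within 100 bp of the centre. Among N-Myc peaks it fell as well, to 0.265%, 2.18% and 2.07% in the same order. Peak widths were matched only in the last of these settings. Of the 5 members with a bound promoter, 2 held a pair, and 1 held one without mismatches. No paired analysis was possible because the lists are pooled over replicates, and for the same reason no replicate could be left out. Without heights or counts, a missing row says that no peak was found in all 3 replicates, not that the protein was absent.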

Other observations

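The places of the 60 JMJD6 peaks that held an X and Y box pair were looked up after the data had been seen. Of the 9 JMJD6 peaks in promoters of class II list genes or HLA-DPB2, 4 held one, and of the 2 intergenic peaks of the class II segment both did. Of the 8 JMJD6 peaks in class I promoters 1 held a pair. Of 107 JMJD6 peaks in the promoters of other genes 17 held one, and of 434 peaks in no listed promoter elsewhere 35 did. A pair without mismatch was in 11 JMJD6 peaks, of which 9 lay outside the class I and class II genes, the class II segment and the CD74 intron. A Y box alone, at 5 letters a frequent match, was in 67.6% of JMJD6 peaks (95% exact binomial CI 63.5 to 71.4%) and 46.5% of N-Myc peaks (CI 45.5 to 47.5%), whose widths were not matched.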
